A study of Homo sapiens with 22 samples.

Results

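CASC15, which makes long non-coding RNAs, lies in the neuroblastoma risk locus at 6p22. It was followed here with 4 genes that lie beside or inside it: NBAT1, a long non-coding RNA gene on the opposite strand, and the protein-coding genes SOX4, CDKAL1 and E2F3. These 5 genes were chosen by position and matched by symbol to 5 of the 63677 Ensembl rows of each table. The set was taken up with earlier results of these data known. SH-SY5Y is a neuroblastoma line whose cells take on neuron-like features under retinoic acid, and KELLY is another neuroblastoma line. SH-SY5Y cells carried stably integrated lentiviral shRNAs, kept by puromycin selection: a scrambled control, or 1 of 2 shRNAs (sh1, sh2) against either of the CASC15 transcripts that the labels call CASC15-003 (the sh003 libraries) and CASC15-004 (the sh004 libraries).

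Monolayers were sampled undifferentiated in 10% serum (day 0) or after 7 days of retinoic acid (day 7, dose labelled 10 mM). The treatment labels of day 7 give 1% serum, while the growth protocol gives 10% in a changed medium, so a day 7 change cannot be told apart from one of serum or medium. The name retinoic acid change below stands for the whole difference between the days. For 2 sh003 libraries, day 7 of sh1 in batch 2 and day 0 of sh2 in batch 1, the culture tag and treatment text contradict the day in the title. Titles were followed. Some results that rest on these libraries are also given without them, while others, such as the sh003 changes of E2F3, are given with them only. There were 3 control, 3 sh003 and 2 sh004 libraries at day 0 and 2 control, 3 sh003 and 2 sh004 libraries at day 7. Spheres gave 1 control, 2 sh003 and 2 sh004 libraries, and KELLY cells gave 1 library each for control siRNA and SOX9 siRNA. Titles of the monolayers name 3 batches, and all 4 sh004 monolayer libraries belong to batch 2. The 22 libraries held 11.9 to 62.1 M reads assigned to genes. Among noradrenergic markers, PHOX2A, GATA2, GATA3, HAND2, ISL1, DBH, CHGA and CHGB were at 1 RPKM or above in 22 of 22 libraries, and TH in 5, while PTPRC, CD3E, PECAM1 and ALB stayed below 0.1 RPKM throughout. RPKM is reads per kilobase of gene and per M assigned reads. The sources do not say whether libraries of a group came from separate cultures, so each p-value below speaks of the scatter of these libraries alone, which may be technical. Each knockdown group pools libraries of sh1 and sh2. Its SDs, SEs and p-values therefore mix differences between the 2 shRNAs with those between libraries of the same shRNA.

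Long non-coding RNAs act as RNA, many of them in the nucleus on chromatin, and the transcripts of such a gene can start at widely separated promoters. NBAT1 is known in neuroblastoma as an RNA that works with the Polycomb complex PRC2 and restrains growth. SOX4 encodes a SOXC transcription factor of immature neurons, CDKAL1 an enzyme that methylthiolates an adenosine beside the anticodon of a lysine tRNA, and E2F3 a transcription factor that drives genes of the G1 to S transition.

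In the GENCODE release 29 annotation (GRCh38), E2F3 (chr6:20401906-20493715), CDKAL1 (chr6:20534457-21232404), SOX4 (chr6:21592768-21598619) and CASC15 (chr6:21664772-22368328) follow each other on the plus strand. NBAT1 (chr6:22134957-22147193) lies on the minus strand within CASC15. The deposited tables were made on hg19, so these positions describe the reference and not the tables. CASC15 has 8 annotated transcripts over 703.6 kb. Each of the 4 shRNA sequences matched exactly, in sense, within CASC15 transcripts only, in 4 of 206694 transcripts searched. The stretches that hold the targets are printed because they show which parts of CASC15 the knockdowns address, with the 21-base targets in capitals.
sh003 (sh1 target first, then sh2), chr6:21668702-21668763, plus strand: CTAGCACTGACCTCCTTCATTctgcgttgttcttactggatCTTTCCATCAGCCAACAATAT
sh004 (sh2 target first, then sh1), chr6:22146898-22146997, plus strand: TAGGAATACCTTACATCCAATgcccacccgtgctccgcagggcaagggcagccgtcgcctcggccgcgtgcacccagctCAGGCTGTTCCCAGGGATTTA
The sh003 targets lie in CASC15-205 (exon 3 of 7) and CASC15-206 (exon 2 of 12), which start at the upstream end of the gene. The sh004 targets lie 478.1 kb downstream in exon 1 of CASC15-204 and of CASC15-202, beside the start of NBAT1.

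**Figure D1:**
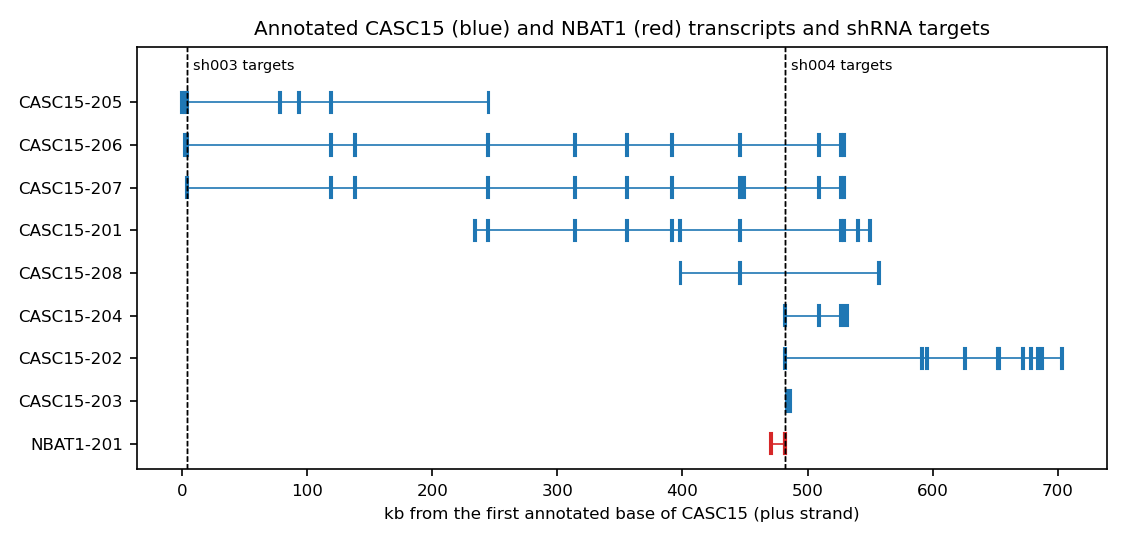
Annotated exons (boxes) of the 8 CASC15 transcripts (blue, plus strand) and of NBAT1 (red, minus strand) in kb from the first annotated base of CASC15. Short exons are drawn wider than scale so that they can be seen. Dashed lines mark the shRNA targets, and the sh003 and sh004 targets are 478.1 kb apart.

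The deposited values are totals per gene, so a fall of 1 transcript form can be hidden by the others. Transcripts with an sh003 target cover 19.8% of the 13289 bases of CASC15 exons in release 29, those with an sh004 target 39.4%, and the 4 transcripts with no target 56.6% (some bases are in several forms). Of the NBAT1 exon bases, 11.7% (227 bases) lie within CASC15 exons on the other strand. No base of an shRNA target falls in an NBAT1 exon. The library kit keeps strand, but whether the counting used it is not given in the sources used here, so reads of CASC15 and NBAT1 may not be told apart in the shared stretch. Exons of SOX4 and CASC15 overlap those of AL512380.2 (other strand) and AL359694.2 (same strand) respectively, so reads there may be shared as well. The RefSeq window around the NBAT1 start (250 bases before to 50 after, GRCh38.p14, chr6:22147144-22147443, minus strand) shows how closely the 2 genes adjoin, and its capitals mark the 149 bases that are also exon 1 of CASC15-204.
NBAT1 start window: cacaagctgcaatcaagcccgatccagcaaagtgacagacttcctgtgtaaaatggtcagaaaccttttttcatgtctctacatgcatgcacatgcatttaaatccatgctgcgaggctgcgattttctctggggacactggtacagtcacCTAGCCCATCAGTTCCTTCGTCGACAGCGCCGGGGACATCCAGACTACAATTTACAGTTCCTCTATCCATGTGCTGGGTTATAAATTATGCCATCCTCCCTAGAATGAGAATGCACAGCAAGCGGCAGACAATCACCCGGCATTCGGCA
The retinoic acid receptor half-site AGGTCA, searched on both strands with no overlap with another motif considered, occurred in 1 of 6 start windows of the members, that of SOX4, and in 13.8% of 35116 RefSeq windows.

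CASC15 was expressed at a low level in every library, from 1.14 to 3.38 RPKM in the 15 monolayers (202 to 1179 reads). Day 0 controls held 1.52, 1.31 and 2.38 RPKM in batches 1, 2 and 3, and day 7 controls 3.33 and 3.26 in batches 1 and 2. The sh003 libraries held 2.65 (sh1, batch 3), 1.95 (sh2, batch 1) and 1.57 (sh2, batch 2) at day 0. At day 7 they held 2.08 (sh1, batch 2), 3.27 (sh2, batch 1) and 3.38 (sh2, batch 2). In sh004, sh1 went from 1.16 at day 0 to 1.31 at day 7, and sh2 from 1.14 to 1.48. The sh004 libraries were thus the lowest of each day, with no overlap with the controls or the sh003 libraries of that day, whereas sh003 and control values overlapped on both days. Here and below, overlap between groups and counts of day pairs were not taken over all genes. They are descriptions of small groups and no test. Within batch 2 the day 0 control (1.31 RPKM, counting interval 1.20 to 1.44) was close to the sh004 pair, and the day 7 control (3.26 RPKM, 3.08 to 3.45) was far above it. These 95% intervals are exact Poisson limits and cover counting error only.

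**Figure D2:**
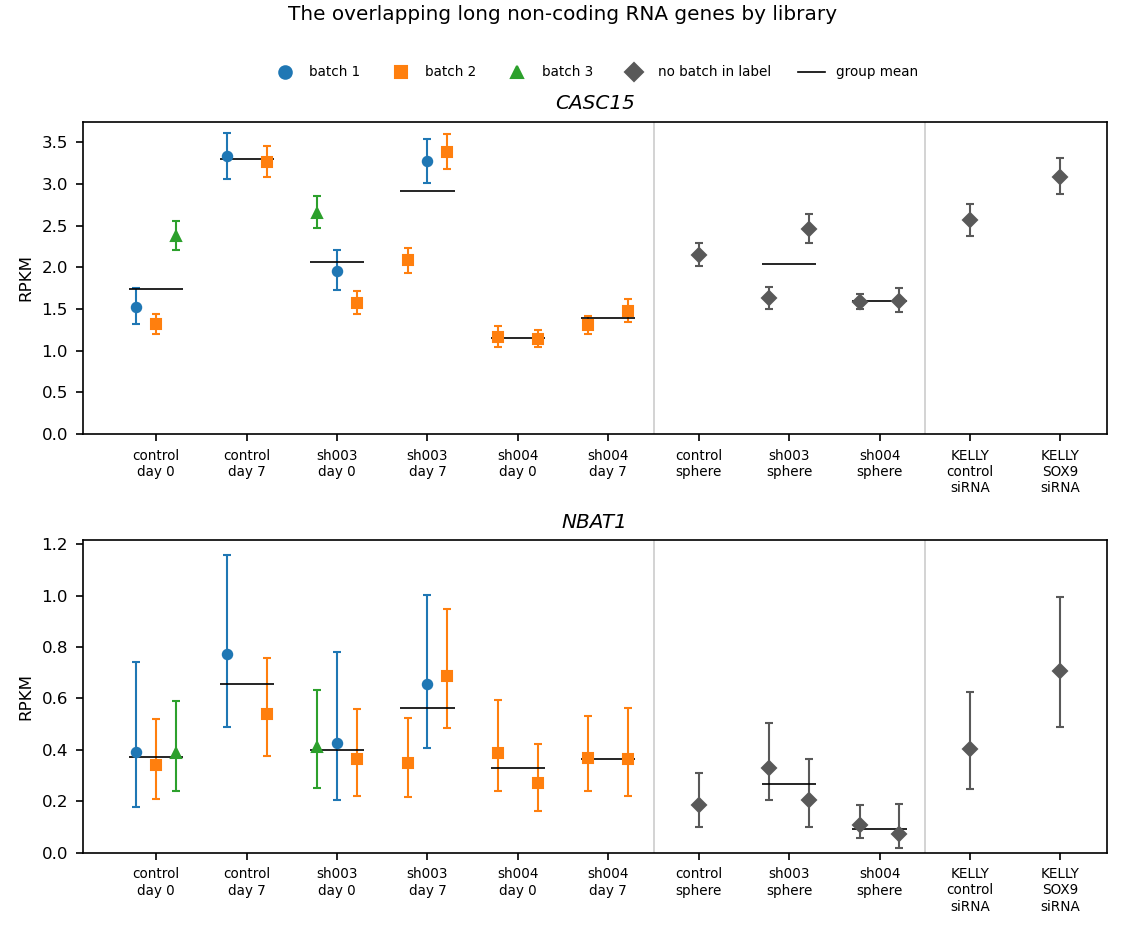
RPKM of CASC15 (top) and NBAT1 (bottom) in each of the 22 libraries, coloured by the batch in the title, with exact 95% counting intervals and, as a line, the mean of groups with several libraries. The day 7 control libraries, at 3.33 and 3.26 RPKM of CASC15, stand above the sh004 libraries of both days.

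CASC15 rose with retinoic acid in control and sh003 cells once batch was taken into account. In control cells the mean went from 1.74 ± 0.56 RPKM (SD, n = 3) at day 0 to 3.29 ± 0.05 (SD, n = 2) at day 7. In sh003 cells, with sh1 and sh2 pooled, it went from 2.06 ± 0.55 to 2.91 ± 0.72 (SD, n = 3 each). Where the same shRNA was sampled at both days in the same batch, 6 of 6 pairs were higher at day 7. The ratio was 2.19 and 2.48 in control, 1.67 and 2.15 in sh003 sh2, and 1.12 and 1.29 in sh004 sh1 and sh2. The sh003 sh2 pair of batch 1 (ratio 1.67) holds the day 0 library with contradicting tags, and sh003 sh1 had no same-batch pair. Changes were tested with limma on log2(RPKM + 0.5), a scale that understates changes of low genes, and a call required an adjusted p (Benjamini-Hochberg, over all 19461 monolayer genes) below 0.05. Without a batch term the control rise was 0.79 (log2, SE 0.27, adjusted p = 0.205) and the sh003 rise 0.41 (SE 0.24, adjusted p = 0.404), neither called. With batch as a block the control rise was 0.97 (SE 0.19, adjusted p = 0.0182) and the sh003 rise 0.62 (SE 0.17, adjusted p = 0.0388), both called, while the sh004 change of 0.19 (SE 0.20, adjusted p = 0.722) was not. Without the 2 libraries with contradicting tags the sh003 rise was 0.58 (adjusted p = 0.387) without the block and 0.86 (adjusted p = 0.0455) with it.

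Those calls were common ones. With the block, 7.68% of all genes were called in control and 14.3% in sh003, against 2.11% in sh004, and CASC15 was the 1 of 4 tested members called in each of the first 2 comparisons. Without the block 0.956%, 2.35% and 0.38% of genes were called and none of the 4 members (none by voom on recovered reads either; CASC15 in control and E2F3 in sh003 had an unadjusted p below 0.05). The control call was lost when any of the 4 control libraries of batches 1 and 2 was left out (adjusted p = 0.0627 to 0.152), and the sh003 call was kept in 3 of 15 such refits. The median of all genes in the control comparison was 0.15 and moved by -0.117 under median-ratio scaling, which is small beside the CASC15 change.

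CASC15 was lower in sh004 than in control libraries at both days, without passing the test. The difference was -0.41 (SE 0.27, adjusted p = 1) at day 0, -1.01 (SE 0.29, adjusted p = 0.520) at day 7 and -0.71 (SE 0.20, unadjusted p = 0.00417, adjusted p = 0.345) for the mean of both days. All sh004 libraries belong to batch 2, and with the block the differences were -0.14 (SE 0.20, unadjusted p = 0.494) at day 0, -0.92 (SE 0.21, adjusted p = 0.133) at day 7 and -0.53 (SE 0.15, adjusted p = 0.242) for the mean of both days. Leaving out 1 library at a time without the block gave -0.55 to -0.21 at day 0. Group means stood at a ratio of 0.663 at day 0 and 0.422 at day 7. Against sh003 the mean over both days differed by -0.72 (SE 0.19, adjusted p = 0.108). In sh003 the difference from control was 0.20 (SE 0.24) at day 0, -0.18 (SE 0.27) at day 7 and 0.01 (SE 0.18, adjusted p = 0.991) for the mean of both days. The gene total therefore shows no fall in the libraries labelled sh003, and it does not check the transcript they target. The smaller day 7 response in sh004 than in control (-0.60, SE 0.39, adjusted p = 1.00) was not called, nor was the sh003 difference (-0.38, SE 0.36, adjusted p = 1).

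Few genes passed in these knockdown comparisons without the block. limma called 0.00514% of genes for sh003 against control at day 0, 0.0719% for the mean of both days (voom called 0 there), and 0 genes at day 7. For sh004 against control it called 0 genes at day 0, at day 7 and for the mean of both days, and voom called 0 in each, while 378, 1564 and 1804 genes had an unadjusted p below 0.05. For sh003 at day 7 the unadjusted count was 1405 and the voom count 0. Both day 7 responses set against that of control gave 0 called genes by limma and by voom, and 284 genes each had an unadjusted p below 0.05. With the block the share called was 0.252% at day 0, 0.00514% at day 7 and 3.46% for the mean of both days in sh003. In sh004 it was 0% at day 0, 0.226% (44 genes) at day 7 and 0.0565% (11 genes) for the mean. The 2 responses set against control had 0% in sh003 and 0.0103% in sh004 with the block. With no filter sh004 against control gave 6, 69 and 26 called genes at day 0, at day 7 and for the mean. Between sh004 and sh003, 0.139% of genes were called without the block and 0.195% with it. None of the 4 tested members was called in these 9 comparisons by limma, with or without the block, or by voom. Without the block CASC15 alone had an unadjusted p below 0.05, in 3 of them.

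NBAT1 was near the limit of these libraries. It held 9 to 37 reads per monolayer library, 0.27 to 0.77 RPKM, and was below the level required for testing (RPKM of 1 or above in at least 2 libraries). Control libraries held 0.39, 0.34 and 0.39 RPKM at day 0 (batches 1, 2 and 3) and 0.77 and 0.54 at day 7 (batches 1 and 2), so the 2 days did not overlap. For sh003, sh1 held 0.41 at day 0 and 0.35 at day 7, while sh2 went from 0.43 to 0.66 in batch 1 and from 0.36 to 0.69 in batch 2. In sh004 it held 0.39 and 0.27 at day 0 and 0.37 and 0.36 at day 7, and the day 7 pair lay below both day 7 controls. The counting interval of the batch 1 day 0 control, 0.18 to 0.74 RPKM from 9 reads, is almost as wide as the whole range of the gene. With no filter, where 41887 genes were tested, its control change at day 7 was 0.40 (SE 0.25, adjusted p = 0.585) and its day 7 difference between sh004 and control -0.41 (SE 0.27, adjusted p = 0.735).

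NBAT1 and CASC15 moved alike from library to library. Over the 15 monolayer libraries Pearson's r of log2(RPKM + 0.5) was 0.845, and 0.892 after each batch mean was subtracted. The points share libraries, depth and, in part, exon bases, and no test was made. CASC15 was less tied to the protein-coding neighbours, with r of 0.482 for SOX4, -0.258 for CDKAL1 and -0.374 for E2F3, which became 0.267, -0.326 and -0.580 after batch centring. The highest r among member pairs after CASC15 with NBAT1 was that of CDKAL1 with E2F3, 0.749 (0.728 after centring).

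Of 15673 genes ranked over the same libraries, the 5 most like CASC15 were ENSG00000271430 (r = 0.949), VPS13C (0.944), VPS13B (0.926), ENSG00000271533 (0.925) and AKAP9 (0.922). VPS13C and VPS13B encode very long lipid-transfer proteins and AKAP9 a scaffold protein of the centrosome and Golgi. After batch centring ENSG00000271430 stayed in the first 5, at 0.958, together with KIF27, MYO9A, ALDH3A2 and MALAT1. For SOX4 the first 5 were AGFG1 and ZSWIM6 (0.830 each), TNFRSF21 (0.825), CAAP1 (0.803) and ENSG00000257761 (0.779), and none of these stayed in the first 5 after batch centring.

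SOX4 was the most abundant member in monolayers, at 54.3 to 134.7 RPKM. Day 0 controls held 84.7, 54.3 and 116.3 RPKM in batches 1, 2 and 3, and day 7 controls 95.4 and 74.6 in batches 1 and 2. For sh003, sh1 held 129.9 at day 0 in batch 3 and 67.3 at day 7 in batch 2, while sh2 went from 134.7 to 123.5 in batch 1 and from 83.3 to 80.6 in batch 2. In sh004, sh1 went from 63.8 at day 0 to 59.8 at day 7, and sh2 from 64.8 to 118.3. Batch 2 libraries were the lowest in every group that held several batches, and control groups of the 2 days overlapped. The 2 sh004 shRNAs were alike at day 0 and apart at day 7. The retinoic acid change was 0.06 (SE 0.38) in control, -0.37 (SE 0.34) in sh003 and 0.38 (SE 0.42) in sh004, none called, and the sh003 change was -0.06 without the 2 libraries with contradicting tags. Of the same-batch pairs, 3 of 6 were higher at day 7. SOX4 differed from control by 0.48 (SE 0.34) in sh003 and by -0.33 (SE 0.38) in sh004 at day 0, and the latter became 0.15 with the batch block.

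The other genes of the SOXC list (SOX11, SOX12 and genes of neuronal differentiation or SOX partners, 10 tested with SOX4) gave no call with retinoic acid in any of the 3 arms, with medians of 0.01, -0.26 and -0.02 in control, sh003 and sh004 against 0.15, 0.05 and 0.02 over all genes. With the block, TUBB3, a tubulin of neurons, was lower in sh003 than in control over both days (-0.61, SE 0.13, adjusted p = 0.0435), where 3.46% of genes were called; without the 2 libraries with contradicting tags it was not called.

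**Figure D3:**
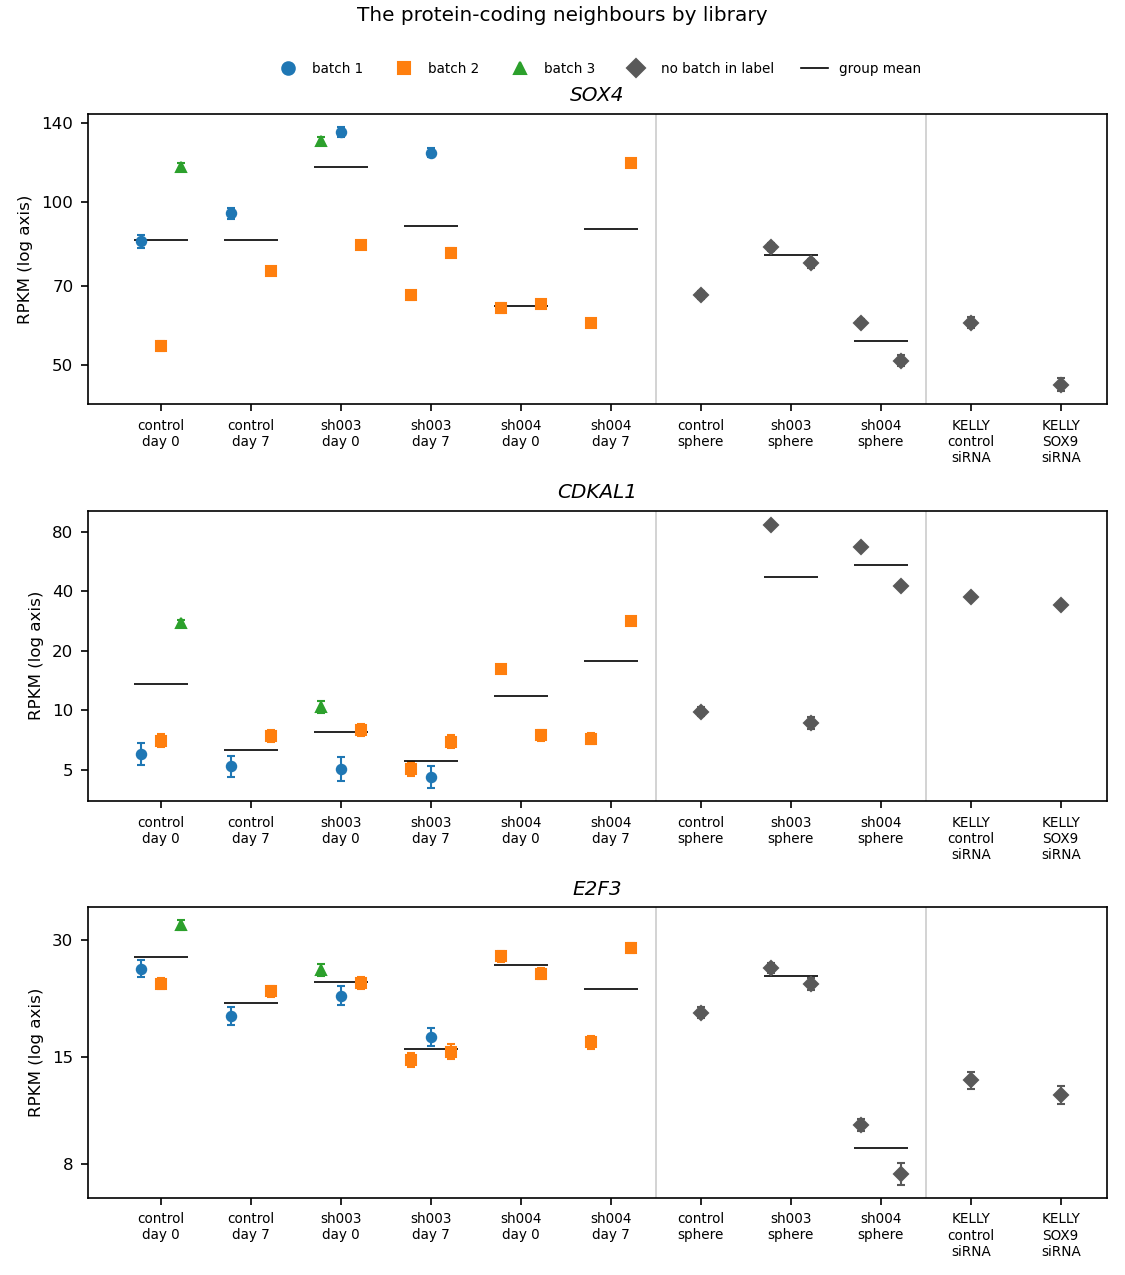
RPKM of SOX4, CDKAL1 and E2F3 in each of the 22 libraries on log axes, coloured by the batch in the title, with exact 95% counting intervals and, as a line, the mean of groups with several libraries. CDKAL1 runs from 4.59 to 86.4 RPKM, with unlike values in libraries of the same group, and E2F3 is lowest in the sh004 spheres, at 10.1 and 7.53 RPKM.

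CDKAL1 was the most variable member, from 4.59 to 28.2 RPKM in monolayers. Day 0 controls held 6.01, 7.02 and 27.7 RPKM in batches 1, 2 and 3, and day 7 controls 5.21 and 7.42. The sh003 libraries stayed between 4.59 and 10.4 RPKM. In sh004, sh1 went from 16.2 at day 0 to 7.17 at day 7, and sh2 from 7.47 to 28.2. The high values came from single libraries of 3 groups, the batch 3 control, sh004 sh1 at day 0 and sh004 sh2 at day 7, and no group was high as a whole. Accordingly no monolayer comparison was called; the day 7 difference between sh004 and control was 1.14 with an SE of 0.73 (adjusted p = 0.741), and 0.19 without sh2. Release 29 places no other gene's exons over those of CDKAL1. Among 8 other genes of tRNA modification in the anticodon loop, ALKBH8, a tRNA methyltransferase, rose in sh003 with retinoic acid (0.91, adjusted p = 0.0230), and the list had 1 call up and 0 down there, where 2.35% of all genes were called, with a median of 0.02 against 0.05 over all genes. Without the 2 libraries with contradicting tags ALKBH8 was called with the block (1.05, adjusted p = 0.0262) and not without it. With the block CTU2, which thiolates wobble uridines, fell in control and sh003 (-0.80 and -0.75).

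E2F3 was lower at day 7 than at day 0 in control and sh003 libraries without passing the test. Day 0 controls held 25.4, 23.2 and 32.8 RPKM in batches 1, 2 and 3, and day 7 controls 19.2 and 22.2. For sh003, sh1 held 25.2 at day 0 and 14.8 at day 7, while sh2 went from 21.6 to 16.9 in batch 1 and from 23.3 to 15.5 in batch 2. The days did not overlap in either arm, and how many of all genes separate in this way was not counted. In sh004, sh1 went from 27.3 to 16.4 RPKM and sh2 from 24.6 to 28.7, so the 2 shRNAs moved in opposite directions. The change was -0.37 (SE 0.21, adjusted p = 0.481) in control, -0.55 (SE 0.19, unadjusted p = 0.0142, adjusted p = 0.141) in sh003 and -0.25 (SE 0.23, adjusted p = 0.954) in sh004. Of the same-batch pairs, 5 of 6 were lower at day 7. In sh003 the day 7 values lay below both day 7 controls (-0.38, SE 0.21, adjusted p = 0.783).

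Genes that E2F factors are known to drive were lower after retinoic acid in all 3 arms. In control 1 of 24 was higher and the median was -0.73, in sh003 0 of 24 with a median of -1.13, and in sh004 0 of 24 with a median of -0.79, against 0.15, 0.05 and 0.02 over all genes. Without the block 7 fell by the test in sh003, where 2.35% of all genes were called, among them ORC1, CDC6 and MCM4 of origin licensing (-1.18, -1.20 and -1.15) and RRM2 and TYMS of nucleotide synthesis (-1.69 and -1.28). With the block 11 fell in control, 23 in sh003 and 5 in sh004, beside 7.68%, 14.3% and 2.11% of all genes called in either direction. Without the 2 libraries with contradicting tags the sh003 counts were 3 without the block and 17 with it. Of all 19174 genes then tested, 192 and 914 were called. The 3 were CCNA2, CDK1 and TYMS, so ORC1, CDC6, MCM4 and RRM2 were then called only with the block. With the block and all libraries MCM4, a subunit of the replicative helicase, fell by 0.99, 1.38 and 0.94 (log2) in control, sh003 and sh004. The adjusted p-values were 0.0189, 0.00214 and 0.0466. Without the 2 libraries and with the block, MCM4 was called in control (-1.01) and sh003 (-1.52) and not in sh004. Over both days the 24 were all lower in sh003 than in control (median -0.61 against -0.08 over all genes, 0 called without the block and 14 with it, where 3.46% of all genes were called). Without the 2 libraries with contradicting tags none of the 14 calls was kept and the median was -0.63 with the block. Of E2F and pocket protein genes themselves, 13 tested with E2F3, none was called without the block; with it E2F1, E2F7, E2F8 and their partner TFDP1 fell in sh003 (-1.59, -1.81, -1.35 and -0.69), and 3 of the 13 (E2F7, E2F8 and TFDP1) did so without the 2 libraries.

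Of 11 other 6p22 genes tested, 1 was called in a monolayer comparison without the block. That call was in sh003 with retinoic acid, where 2.35% of all genes were called. ID4, an inhibitor of basic helix-loop-helix factors, held 52.8 (sh1, batch 3), 51.6 (sh2, batch 1) and 23.0 RPKM (sh2, batch 2) in sh003 at day 0. At day 0 the controls held 3.20, 2.76 and 9.90 RPKM (batches 1, 2 and 3) and sh004 held 2.60 and 6.07, all below the sh003 libraries. At day 7 all 7 libraries held 0.29 to 2.33 RPKM. Its retinoic acid change was -4.42 (log2, SE 0.56, adjusted p = 0.00264) in sh003, the call, against -1.99 (adjusted p = 0.180) in control and -1.72 (adjusted p = 0.532) in sh004. With the block ID4 was higher in sh003 than in control at day 0 (3.01, adjusted p = 0.0269) and over both days (1.85, adjusted p = 0.0271). In these comparisons 0.252% and 3.46% of all genes were called. Without the 2 libraries with contradicting tags the sh003 fall was still called (-4.05, adjusted p = 0.0403, and -3.50, adjusted p = 0.0238, with the block), and the higher level was not (2.71 at day 0, adjusted p = 0.296, with the block). GMNN, the replication licensing inhibitor geminin, fell with the block in control and sh003 (-0.70 and -1.10), where 7.68% and 14.3% of all genes were called. With the block it was also lower in sh003 than in control over both days (-0.48, adjusted p = 0.0428). GPLD1, a phospholipase, rose in control with the block (0.67). Without the 2 libraries with contradicting tags both falls of GMNN were still called with the block (-0.72 and -1.29). The lower GMNN level in sh003 and the GPLD1 rise were not. The median of the 11 was -0.05 in control, 0.02 in sh003 and 0.01 in sh004, without the block. Among other neuroblastoma susceptibility genes, 14 tested, LMO1, a transcriptional cofactor, fell in sh003 (-2.60, adjusted p = 0.0242, where 2.35% of all genes were called) and, with the block, in control (-2.46) and sh004 (-2.33) too. Without the 2 libraries with contradicting tags it was called in sh003 with the block (-2.67, adjusted p = 0.0457) and not without it. With the block 4 of the 14 fell in sh003, where 14.3% of all genes were called, BARD1 (-0.93) and KIF15 (-1.44) among them. Without the 2 libraries KIF15 was still called with the block (-1.74) and BARD1 was not. The 10 PRC2 and REST genes, listed because of NBAT1, gave no call with retinoic acid without the block and in sh003 with it EZH2 and RBBP7 fell (-0.92 and -0.47) and EZH1 rose (0.50). Of these 3, EZH2 was still called without the 2 libraries (-1.11).

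**Figure D4:**
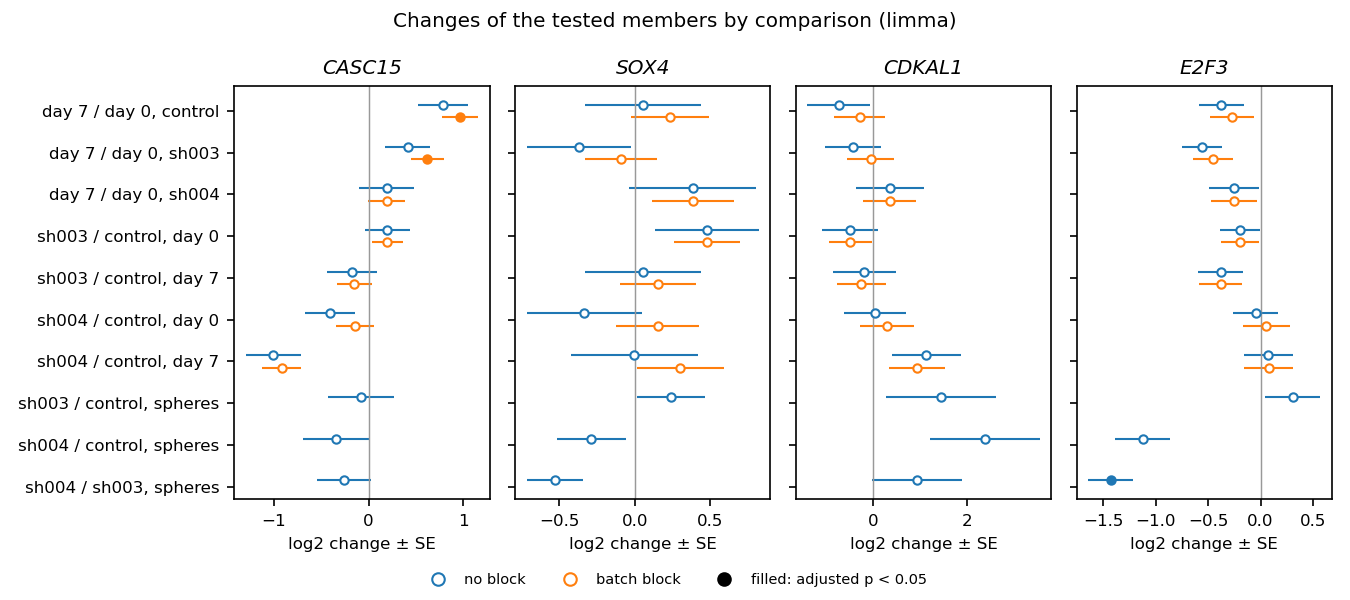
Change of the 4 tested members (log2 of RPKM + 0.5, point and SE) in 10 comparisons by limma, without (blue) and with (orange) batch as a block; spheres have no batch label. Filled points passed an adjusted p of 0.05: CASC15 at day 7 in control (0.97) and sh003 (0.62) with the block, and E2F3 in sh004 against sh003 spheres (-1.43).

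In spheres CASC15 held 2.15 RPKM in the control, 1.63 (sh1) and 2.46 (sh2) in sh003 and 1.59 (sh1) and 1.60 (sh2) in sh004. The sh004 pair was the lowest, by a small margin below sh003 sh1. NBAT1 had 4 to 21 reads, at 0.19 RPKM in the control, 0.33 and 0.20 in sh003 and 0.11 and 0.07 in sh004. SOX4 held 67.5 RPKM in the control, 82.7 and 77.1 in sh003 and 59.8 and 50.9 in sh004, so the control lay between the knockdowns. CASC15 differed between sh004 and sh003 by -0.26 (SE 0.28, adjusted p = 0.482) and SOX4 by -0.53 (SE 0.19, adjusted p = 0.0630).

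E2F3 was the only tested member called in spheres with all libraries in the fit. It held 19.5 RPKM in the control, 25.5 (sh1) and 23.1 (sh2) in sh003 and 10.1 (sh1) and 7.53 (sh2) in sh004. Against sh003 it was lower by 1.43 in sh004 (log2 change -1.43, SE 0.21, adjusted p = 0.00893) and was called, as 1 of 4 members. In that comparison 39.9% of 14711 genes were called, so a call was common there. Without sh004 sh2 the E2F3 value was -1.23 (adjusted p = 0.0506) and 26 genes in all were called, and with no filter on low genes none was (E2F3 adjusted p = 0.0771). Against the single control, whose scatter was taken to match the knockdown pairs, E2F3 changed by -1.12 in sh004 (SE 0.26, adjusted p = 0.122) and 0.31 in sh003 (SE 0.26, adjusted p = 0.528), where 0.129% and 0% of genes were called.

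With 39.9% of all genes called between sh004 and sh003 spheres, calls in the lists are given as values only. Of 13 E2F and pocket protein genes 8 fell against sh003 and none rose, with a median of -1.04 against -0.13 over all genes. Beside E2F3 they include the pocket proteins RB1 (-1.82) and RBL2 (-2.10), which restrain E2F factors, and E2F7 (-2.04) and TFDP1 (-1.28). Of the 24 E2F target genes 8 fell and none rose (median -0.57), a share below that of all genes, RRM1 (-1.41), CCNA2 (-1.29) and RRM2 (-1.05) among them. Of 10 other locus genes 1 fell, MBOAT1, a lysophospholipid acyltransferase (-1.26). SUZ12, RBBP4 and RCOR1 of the 10 PRC2 and REST genes fell (-1.57, -0.97 and -0.95). In the SOXC list TCF4 fell (-1.81) and PRDX2 rose (1.05), in the tRNA list CTU1 and URM1 rose (1.67 and 1.60) and ALKBH8 fell (-1.01), and 6 of 14 susceptibility genes fell, BARD1 (-1.58) and LIN28B (-1.38) among them. Apart from the E2F and pocket protein genes, these lists had shares of calls near or below that of all genes.

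CDKAL1 in spheres held 9.83 RPKM in the control, 86.4 (sh1) and 8.60 (sh2) in sh003 and 66.9 (sh1) and 42.5 (sh2) in sh004. The 2 sh003 shRNAs differed more than any groups did, sh2 lying at the control level and sh1 above both sh004 libraries. The difference of sh003 from control was 1.45 (SE 1.17, adjusted p = 0.505) with both, 3.07 (adjusted p = 0.0323) without sh2 and -0.18 without sh1. The difference of sh004 from control, 2.38 (SE 1.17, adjusted p = 0.284), was called when either sh003 library was left out (adjusted p = 0.0419 without sh1 and 0.0236 without sh2), while its value stayed at 2.38; the fit shares 1 spread among all groups.

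KELLY libraries had no replicates. CASC15 held 2.56 RPKM with control siRNA and 3.09 with SOX9 siRNA (728 and 827 reads), a read ratio scaled to depth of 1.21 with a 95% exact (Clopper-Pearson) interval of 1.09 to 1.33. NBAT1 held 0.40 and 0.71 RPKM from 20 and 33 reads, a ratio of 1.75 whose interval of 0.975 to 3.22 spans equality. SOX4 went from 59.8 to 46.0 RPKM, a ratio of 0.768 (0.742 to 0.796). CDKAL1 held 37.4 and 34.2 RPKM and E2F3 13.1 and 12.0, with ratios of 0.914 (0.869 to 0.962) and 0.919 (0.855 to 0.989). These intervals compare 2 libraries and cover counting error only, and no condition was tested.

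By level per length the members kept nearly the same order in all cultures: SOX4 highest and NBAT1 lowest, with CASC15 next to lowest, in every table by median. In monolayers E2F3 (median 23.2 RPKM) stood above CDKAL1 (7.17), but with the highest CDKAL1 libraries reaching 28.2 the 2 ranges overlapped. In spheres CDKAL1 (median 42.5 RPKM) stood above E2F3 (19.5), again with overlapping ranges, and in KELLY it stood above E2F3 in both libraries. CDKAL1 also stood above SOX4 in the sh1 spheres of sh003 (86.4 against 82.7 RPKM) and sh004 (66.9 against 59.8). The tables were not tested against each other.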

How the data were processed

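Total RNA of 22 neuroblastoma libraries was sequenced. The authors deposited RPKM for 63677 genes in 3 tables (monolayer, sphere, KELLY); the submitters' processing notes name TopHat, featureCounts, Subread and hg19, and give no versions. Counting by strand and the annotation release are not given in the sources used here. Read counts were rebuilt from RPKM, gene length and estimated totals (100% of values within 0.01 of a whole number). Sphere RPKM came out whole only with 10 library totals rotating from gene to gene, 5 of them the sphere libraries' own totals. Sphere RPKM was therefore recomputed with each library's own total. Python 3.11.15, pandas 2.3.3 and scipy 1.17.1 were used.

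Libraries were grouped by title. Titles and differentiation tags disagree for 2 sh003 libraries (day 7 of sh1 in batch 2, day 0 of sh2 in batch 1), and the sh004 sh2 sphere has no culture tag. Genes at 1 RPKM or above in 2 libraries or more were kept (19461 monolayer, 14711 sphere). limma 3.58.1 (R 4.3.3, trend) was fitted to log2(RPKM + 0.5) with all groups of a table sharing the spread (9 residual degrees of freedom in monolayers). Its adjusted p-values are Benjamini-Hochberg over all genes kept. The fit was checked on simulated data. The block is the batch in the titles: over control and sh003 libraries, same-batch deviations from group means had r of 0.716 to 0.942 (16 pairs), and those of other batches -0.920 to 0.744 (29 pairs, median -0.792), so the 2 ranges overlap. Nothing was tested across tables. Some cell type markers are not reported here.

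All 5 members are reported. Genes most like CASC15 and SOX4 are the 5 with the highest r among those passing the filter with a mean of at least 1 RPKM. Of 7 lists, called genes are named, at most 5 a list by smallest p. Lists matched 20 of 21 locus genes, 18 of 19 susceptibility genes and all of the others. The members and lists were chosen with earlier results of these data known. Alternatives were the block, pseudocounts 0.1 and 1, no filter, median-ratio scaling, voom on recovered reads, batch 2 alone, the deposited sphere RPKM, leaving out the 2 contradicting libraries, and leaving out each library.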

Additional observations from a re-analysis of the deposited data

How the results depend on the processing

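The values of CASC15 given above kept their direction and their side of the threshold under the alternatives except as follows. With the batch of the titles as a replicate block, the retinoic acid changes of CASC15 were 0.97 in control and 0.62 in sh003 and passed the threshold, and the block changed no other member's call. Leaving out each library in turn in that fit, chosen after seeing the data, gave 0.87 to 1.07 in control and 0.49 to 0.78 in sh003, and the calls were kept in 11 and 3 of 15 refits. Leaving out the 2 libraries with contradicting tags in that fit, likewise chosen later, gave 0.99 and 0.86, both called. The sh003 difference of CASC15 from control, near 0, changed sign: at day 7 it was 0.01 without the 2 libraries with contradicting tags and -0.28 to 0.01 without each library, for the mean of both days -0.03 in batch 2 alone and -0.07 to 0.11 without each library, and in spheres -0.32 to 0.16 without each library. With the sphere RPKM as deposited, whose totals rotate from gene to gene, sh004 against sh003 was 0.41 for CASC15 and 0.14 for SOX4, and the E2F3 call was lost (-1.22, adjusted p = 0.511). That call was also lost with no filter (-1.43, adjusted p = 0.0771) and without sh004 sh2 (-1.23, adjusted p = 0.0506). Over all genes that comparison gave 5865 calls, 366 as deposited, 0 with no filter, 26 without sh004 sh2, 2702 without sh004 sh1 and 2365 without sh003 sh2. SOX4 changed sign with retinoic acid in control (-0.08 under median-ratio scaling, -0.23 to 0.31 without each library) and in sh004 (-0.10 to 0.87), and for sh004 against control at day 0 (0.15 with the block, 0.24 in batch 2 alone). E2F3 with retinoic acid in sh004 ranged from -0.65 to 0.14 without each library. CDKAL1 against control spheres ranged from -0.18 to 3.07 in sh003, the highest passing the threshold without sh003 sh2 (adjusted p = 0.0323), and in sh004 it passed without either sh003 sphere (2.38 in both, adjusted p = 0.0419 and 0.0236). The cause of these changes was not tested. Counts of called genes rose with the block, from 186 to 1494 in control, 458 to 2779 in sh003 and 74 to 410 in sh004 for retinoic acid, and from 14 to 673 for sh003 against control over both days (27 with the block and without the 2 libraries with contradicting tags). Without the block that comparison gave 0 calls by voom, 2 with a pseudocount of 1, 7 under median-ratio scaling and 48 with no filter. For retinoic acid in control and sh003, batch 2 alone gave 1 and 29 calls and leaving out the 2 libraries with contradicting tags 94 and 192 (1071 and 914 with the block, against 1494 and 2779), and no filter gave 303 in control. Median-ratio scaling changed the split of higher and lower calls from 137 and 49 to 89 and 65 in control and from 305 and 153 to 235 and 265 in sh003. Centring on batch means moved the likeness of ZSWIM6 to SOX4 from 0.83 to 0.56, and that of the 5 genes named for CASC15 stayed between 0.90 and 0.96. NBAT1 was limited by its few reads, and the lone control sphere could not be left out.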
